A study of Homo sapiens with 12 samples.

Results

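The 56 genes described here make the proteins that copy DNA, supply its building blocks and drive entry into S phase, the stage of the cell cycle in which the genome is replicated. They were taken from a list of symbols in 8 classes, which was chosen with earlier results of these data known. All 56 were among the 18417 genes that the arrays measured under a single symbol. RNA came from HEK293T cells, a human embryonic kidney line that carries the SV40 large T antigen, 78 h after transfection with Origene pRS-RFP-C plasmids. The 4 groups of 3 biological replicates received a nontargeting shRNA (shCTRL), shRNAs against UBE4B (shUBE4B), shRNAs against LSD1 (shLSD1) or both sets (shUBE4B+shLSD1, the double knockdown). UBE4B is a ubiquitin ligase that extends ubiquitin chains, and LSD1 is a histone demethylase encoded by KDM1A. The study's text places a misfolding mutant of SOD1 in the cells of all groups, the control included, but the sample labels do not name it. Knockdown was transient, in 1 cell line, and the labels do not say how many shRNAs were used against a gene. The values are log2 signals, so a difference of 1 is a doubling.

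In the textbook account of these genes, the origin recognition complex (ORC) binds DNA in G1, and CDC6 and CDT1 then load the ring of MCM2 to MCM7 that becomes the replicative helicase. CDC7, CDC45 and the GINS complex switch the ring on, RPA covers single strands, and primase and the polymerases alpha, delta and epsilon make the new strands with the sliding clamp PCNA and its loader RFC. Many of these genes are switched on by the activating E2F factors (E2F1, E2F2, E2F3) once RB family proteins release them, and switched off by the repressive E2F7 and E2F8. Large T antigen, present in this line, binds RB family proteins.

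An E2F site is the sequence that these promoters are best known to share, so the promoter windows of RefSeq (GRCh38.p14, 250 bases before to 50 after the gene start) were searched for TTTGGCGC, TTTCCCGC, TTTCGCGC and TTTGCCGC on both strands. The table held windows for 48 of the 56 genes, and 24 of these 48 (50%) contained at least 1 of the E2F sequences, against 1090 of 27305 genes with a window (3.99%). CCAAT, searched on both strands, was found for 60.42% of the 48 genes and 39.72% of all genes with a window. The CHR letters TTTGAA or TTTAAA, an element known from G2 and mitosis genes, were found for 14.58% and 27.85%. Matches were letters only, and no binding was measured in these samples.

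The following 30-base stretches show E2F letters for genes whose values are given below, in capitals, 5′ to 3′ on the strand of the gene. They include the activating E2F genes themselves, both licensing and clamp genes, and ORC3 and RFC3, which differed from control. Overlapping matches on opposite strands make longer runs of capitals in MCM2 and MCM6, and the capitals at the end of the E2F1 line start a further match.
E2F1 (chr20:33686400-33686429, minus strand): gtggctctttcGCGGCAAAaaggaTTTGGC
E2F2 (chr1:23531257-23531286, minus strand): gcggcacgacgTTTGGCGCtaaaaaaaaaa
E2F3 (chr6:20401815-20401844, plus strand): ttgaaaagccgGCGGGAAAtccgagtttcg
ORC3 (chr6:87590112-87590141, plus strand): cgcgagggcgcGCGGGAAAtcccgagtgca
CDC6 (chr17:40287875-40287904, plus strand): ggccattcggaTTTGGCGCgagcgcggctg
MCM2 (chr3:127598402-127598431, plus strand): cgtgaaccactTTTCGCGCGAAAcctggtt
MCM3 (chr6:52284728-52284757, minus strand): agttcggaagtTTTCGCGCcggggtggagt
MCM6 (chr2:135876577-135876606, minus strand): agggctttgcaTTTGGCGCGAAAtcccttt
RFC3 (chr13:33818083-33818112, plus strand): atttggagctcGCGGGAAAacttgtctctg
PCNA (chr20:5126663-5126692, minus strand): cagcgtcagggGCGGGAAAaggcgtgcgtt
TYMS (chr18:657603-657632, plus strand): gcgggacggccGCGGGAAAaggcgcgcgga

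The 24 genes with E2F letters were set beside those without. Their median log2 difference from shCTRL was 0.03 in shUBE4B, 0.03 in shLSD1 and -0.03 in the double knockdown, and that of the 24 genes without the letters was 0.02, 0.01 and -0.04. The medians were -0.04, -0.03 and -0.10 with the letters and -0.02, -0.04 and -0.09 without them when shCTRL replicate 2, a control array described below, was left out. With shUBE4B, 1 gene with the letters was higher and 2 were lower past the test, and among those without the letters 1 was higher and 1 lower. Of the 7 genes with a window that passed the test against shCTRL in any knockdown, ORC3, RFC3 and E2F2 held E2F letters.

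The shRNAs reached their targets in every array. UBE4B read 10.39, 10.38 and 10.28 in shCTRL, and its differences were -1.40 in shUBE4B and -1.42 in the double knockdown. KDM1A read 10.91, 10.83 and 10.96 in shCTRL, and its differences were -1.26 in shLSD1 and -1.12 in the double knockdown. All 4 differences had adjusted p values of at most 7.34e-05 in limma. The markers of this line and of colon epithelium carry no detection calls on these arrays, so the presence or absence of one was not read from its signal.

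One control array stood apart, and most replication genes had their lowest control value in it. In shCTRL replicate 2, 44 of the 56 were at their lowest of the 3 controls, against 36.4% of all genes, and 19 were at their lowest of all 12 arrays, against 17.2% of all genes. The array was not apart in these genes alone. Of all genes, 20.0% were at their highest of the 12 arrays there, against 9.1% and 9.4% in shCTRL replicates 1 and 3, and 3 of the 56 were. After each gene was centred on its mean over the arrays, the median of the 56 was 0.07, -0.07 and 0.04 in the 3 shCTRL arrays. It was 0.02, 0.02 and -0.02 in shUBE4B, 0.04, 0.04 and 0.03 in shLSD1, and -0.05, -0.04 and -0.03 in the double knockdown. The 18 mitotic genes listed for comparison moved with it, at 0.09, -0.16 and 0.06 in the 3 shCTRL arrays. The median SD of the 56 genes was 0.1 in shCTRL and from 0.045 to 0.056 in the knockdown groups. Over all genes it was also widest in the control, at 0.114 in shCTRL and from 0.072 to 0.088 in the knockdown groups. What set this array apart was not tested. Calls against shCTRL that changed without it, and the values without it of RRM2, CCNE2, PCNA, E2F3 and UHRF1, are given beside the results below.

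**Figure D1:**
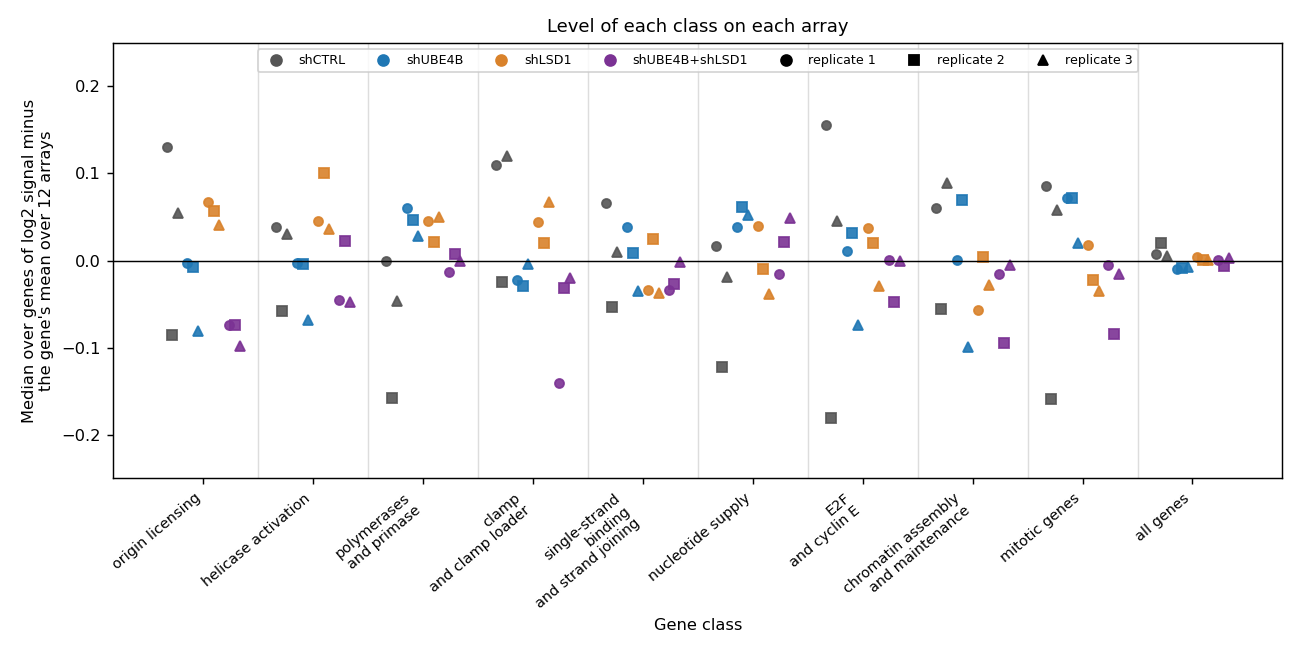
Median over the genes of each class (x axis) of the log2 signal minus the mean of the gene over 12 arrays (y axis), with 1 point per array, colour for the group and shape for the replicate number. The square of shCTRL replicate 2 lies below the other control arrays in all 8 replication classes and in the mitotic genes. The medians of all genes lie near 0, where the quantile normalization of the arrays holds them, so they do not show that an array is otherwise typical.

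Of the 56 replication genes, 46 passed the test in no comparison with shCTRL and 10 passed in at least 1, where 13.1% of all genes passed in at least 1. Those that rose were ORC3, POLD3, E2F7 and CCNE1, and those that fell were MCM5, RFC1, RFC3, TK1, E2F2 and E2F8. None changed as much as 2-fold. The median log2 difference of the 56 was 0.03 in shUBE4B, 0.02 in shLSD1 and -0.05 in the double knockdown, where the medians of all genes were -0.03, -0.01 and -0.01. Without shCTRL replicate 2 these medians became -0.03, -0.04 and -0.10, so the sign of the first 2 rested on that array, and the first was -0.00 after a further quantile normalization. In bulk RNA of this kind, fewer cells in S phase and less mRNA per cell cannot be told apart.

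In shUBE4B, 3 of the 56 genes were higher and 4 lower at an adjusted p under 0.05 (limma, Benjamini-Hochberg over 18417 genes), where 5.59% of all genes were higher and 4.47% lower. In shLSD1, 2 were higher and 0 lower, against 0.505% and 0.315% of all genes, and 9 passed the methods' t-test at an unadjusted p under 0.05, which 9.80% of all genes did. No shLSD1 call was left when any shUBE4B or any shLSD1 array was dropped. In the double knockdown, 3 were higher and 6 lower, against 3.74% and 3.83%. These comparisons share the 3 control arrays. Counted by arrays alone, 9 of the 56 lay above all 3 controls and 11 below them in shUBE4B (14.2% and 16.1% of all genes), 10 and 3 in shLSD1 (8.53% and 8.11%), and 8 and 16 in the double knockdown (10.6% and 11.3%).

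Leaving out shCTRL replicate 2 raised the number of lower genes. It gave 7 lower genes in shUBE4B, where 3.26% of all genes were lower, and 11 in the double knockdown, where 5.01% were. CDC6, which helps load the MCM ring, showed this most plainly. Its shCTRL arrays read 10.69, 10.28 and 10.71, with shUBE4B at 10.35, 10.35 and 10.42, shLSD1 at 10.62, 10.66 and 10.75, and the double knockdown at 10.36, 10.28 and 10.29. Apart from the second control, every array with shRNA against UBE4B lay below every array without it. In the double knockdown CDC6 differed from shCTRL by -0.25 with all 12 arrays (standard error 0.10, adjusted p = 0.142 in limma), and without that control by -0.39 (standard error 0.06, adjusted p = 0.00268). In shUBE4B the differences were -0.19 with it (adjusted p = 0.224) and -0.33 without it (adjusted p = 0.00927). The other genes called only without this array were MCM3 and E2F8 in shUBE4B, and MCM3, ORC4, GINS2 and PRIM1 in the double knockdown.

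**Figure D2:**
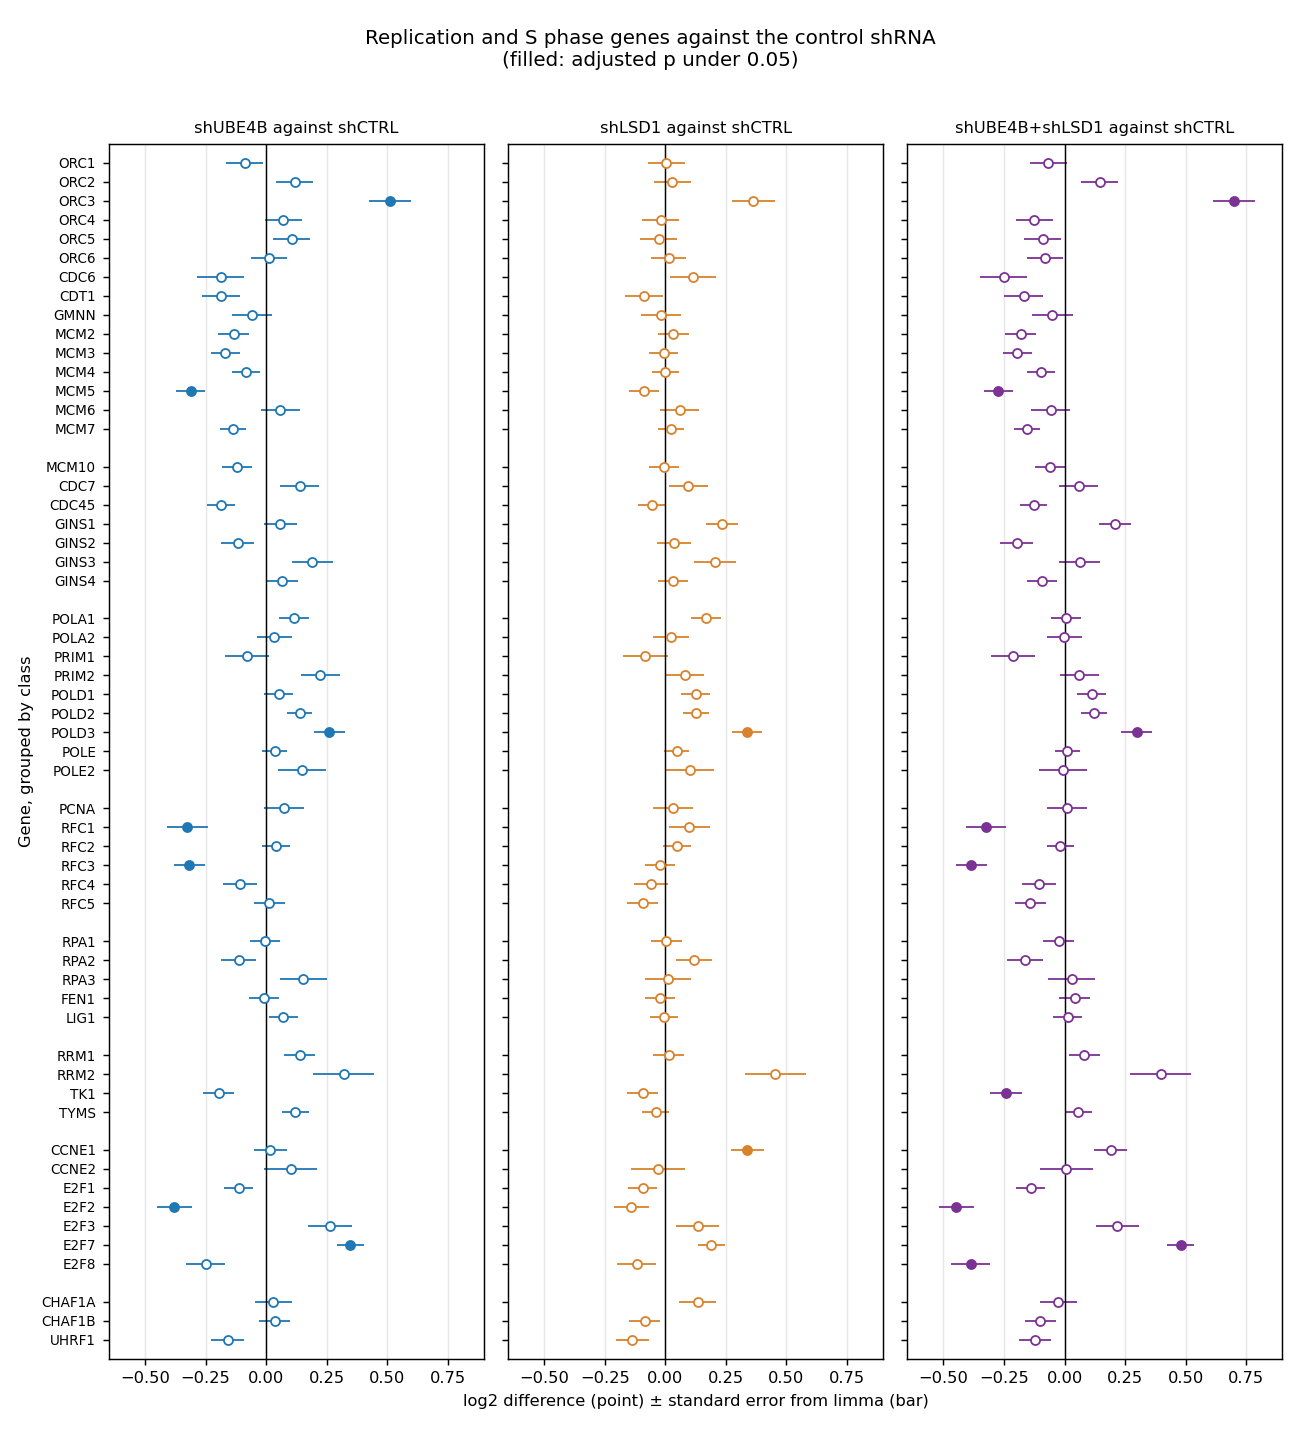
Log2 difference from shCTRL (x axis, point, with the standard error from limma as a bar) of the 56 genes (y axis, grouped in the 8 classes) for the 3 knockdowns, filled where the adjusted p was under 0.05. Most genes lie within 0.25 of 0, and ORC3 reaches 0.70 in the double knockdown.

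ORC3, a subunit of the origin recognition complex, was the replication gene with the largest log2 difference from shCTRL. It read 9.34, 9.05 and 9.45 in shCTRL, 9.76, 9.81 and 9.80 in shUBE4B, 9.57, 9.64 and 9.71 in shLSD1, and 9.92, 10.05 and 9.97 in the double knockdown. Arrays of the 4 groups did not overlap, with the control lowest and the double knockdown highest. ORC3 rose by 0.51 in shUBE4B (1.43-fold, standard error 0.09, adjusted p = 0.00373 in limma) and by 0.70 in the double knockdown (1.63-fold, adjusted p = 0.000436). The difference in shLSD1 was 0.36 (adjusted p = 0.0779). Without shCTRL replicate 2, the lowest of the 12 arrays, the rises were 0.40 and 0.59 and both still passed the test. With all arrays no other ORC subunit passed the test, with differences between -0.12 and 0.15 in ORC1, ORC2, ORC4, ORC5 and ORC6 in the comparisons with shCTRL. Without shCTRL replicate 2, ORC4 was also called, lower in the double knockdown.

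MCM5 was the subunit of the MCM ring that fell. Its signals were 10.85, 10.91 and 10.77 in shCTRL, 10.56, 10.56 and 10.47 in shUBE4B, 10.78, 10.76 and 10.72 in shLSD1, and 10.60, 10.61 and 10.50 in the double knockdown. All 6 arrays with shRNA against UBE4B lay below the 6 without it. MCM5 fell by 0.31 in shUBE4B (standard error 0.06, adjusted p = 0.00775 in limma) and differed by -0.27 in the double knockdown (adjusted p = 0.0156), a call lost without double knockdown replicate 3 (adjusted p = 0.0681). In shLSD1 the difference was -0.09 (adjusted p = 0.583). Unlike most of the 56, MCM5 was not lowest in shCTRL replicate 2 among the controls but highest.

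The other MCM subunits had differences of the same sign in the double knockdown without passing the test. MCM2 read 10.54, 10.56 and 10.37 in shCTRL and 10.28, 10.33 and 10.32 in the double knockdown, a difference of -0.18 (standard error 0.06, adjusted p = 0.11 in limma). The ranges of these arrays did not overlap. In MCM3, MCM4, MCM6 and MCM7 the differences were -0.19, -0.10, -0.06 and -0.16. With MCM5 counted, 5 of the 6 subunits had all double knockdown arrays below all controls, where 11.3% of all genes did. In shUBE4B the median of the 6 was -0.14, and in shLSD1 it was 0.01 (-0.03 without shCTRL replicate 2). MCM3 read 11.30, 11.13 and 11.26 in shCTRL against 11.00, 11.03 and 11.07 in the double knockdown, and without the second control its difference of -0.25 passed (adjusted p = 0.0169). CDT1, the other loading factor, had differences of -0.19, -0.09 and -0.17 in shUBE4B, shLSD1 and the double knockdown, and GMNN, which encodes the CDT1 inhibitor geminin, had -0.06, -0.02 and -0.05. Neither gene passed the test.

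Helicase activation had no call among its 7 genes in any comparison. Its largest difference from shCTRL was that of GINS1, a subunit of the GINS complex. GINS1 read 10.10, 9.98 and 10.17 in shCTRL, 10.26, 10.36 and 10.33 in shLSD1 and 10.22, 10.28 and 10.38 in the double knockdown. The arrays of each of these knockdown groups lay above the controls, with differences of 0.23 (adjusted p = 0.124 in limma) and 0.21 (adjusted p = 0.077). CDC45, which joins GINS and MCM in the active helicase, differed by -0.19 in shUBE4B and -0.13 in the double knockdown, neither past the test. Without shCTRL replicate 2, GINS2 was lower in the double knockdown by -0.26 (adjusted p = 0.0251).

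POLD3, an accessory subunit of the lagging-strand polymerase delta, rose in all 3 knockdowns. It read 9.08, 8.95 and 9.17 in shCTRL, 9.35, 9.34 and 9.29 in shUBE4B, 9.41, 9.41 and 9.39 in shLSD1, and 9.34, 9.34 and 9.42 in the double knockdown. Every knockdown array was above every control array, and the 3 knockdown groups lay close to each other. The rises were 0.26 (adjusted p = 0.0215 in limma), 0.34 (adjusted p = 0.0325) and 0.30 (adjusted p = 0.0121), each with a standard error of 0.06. Without shCTRL replicate 2 they were 0.20, 0.28 and 0.24, and the first no longer passed (adjusted p = 0.0562). The first was also lost without any 1 of the shUBE4B arrays, the shLSD1 rise without shCTRL replicate 1 or any 1 of the shUBE4B or shLSD1 arrays, and the double knockdown rise without its replicate 3, where the adjusted p reached 0.0768, 0.139 and 0.0519. POLD1 and POLD2, further subunits of polymerase delta, differed by 0.05 and 0.14 in shUBE4B, by 0.13 and 0.13 in shLSD1 and by 0.11 and 0.12 in the double knockdown, none past the test. POLD4, the remaining subunit, was on the list of other fork factors and differed by 0.10, -0.00 and 0.05, also without passing. Among the 9 polymerase and primase genes, 8 had positive differences in shUBE4B, 8 in shLSD1 and 6 in the double knockdown (43.5%, 47.1% and 46.9% of all genes), which became 7, 5 and 4 without shCTRL replicate 2. PRIM1, the catalytic primase subunit, had -0.21 in the double knockdown, and this passed the test when shCTRL replicate 2 was left out (-0.31, adjusted p = 0.0327).

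The clamp loader changed in part. RFC1, its large subunit, read 10.33, 10.18 and 10.47 in shCTRL, 9.95, 10.08 and 9.97 in shUBE4B, 10.38, 10.47 and 10.43 in shLSD1, and 9.95, 9.91 and 10.14 in the double knockdown. RFC3, a small subunit, read 10.71, 10.64 and 10.77 in shCTRL, 10.30, 10.44 and 10.42 in shUBE4B, 10.72, 10.63 and 10.70 in shLSD1, and 10.36, 10.28 and 10.32 in the double knockdown. For both genes the 6 arrays with shRNA against UBE4B lay below the 6 without it, and shLSD1 overlapped the control. RFC1 fell by 0.33 in shUBE4B (standard error 0.08, adjusted p = 0.0274 in limma) and differed by -0.32 in the double knockdown (adjusted p = 0.0322). Leaving out shCTRL replicate 1 or 3, or shUBE4B replicate 1 or 3, ended the first call (adjusted p up to 0.0979), and shCTRL replicate 1 or 3, or double knockdown replicate 1 or 2, the second (up to 0.122). RFC3 differed by -0.32 (standard error 0.06, adjusted p = 0.00828) and -0.38 (adjusted p = 0.0025), and kept both calls whichever array was left out. RFC2, RFC4 and RFC5 did not pass, with differences between -0.14 and 0.05. PCNA, the clamp that RFC loads, read 10.06, 9.74 and 10.06 in shCTRL and between 9.93 and 10.06 in the 9 knockdown arrays. Its differences were 0.07, 0.03 and 0.01, none past the test, and its lowest array was again the second control. Without that array they were -0.03, -0.07 and -0.10, also without passing, so their sign rested on it.

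Single-strand binding and strand joining had no call among its 5 genes against shCTRL or between knockdowns. Its largest difference from shCTRL was that of RPA2, a subunit of the single-strand binding complex. RPA2 read 9.64, 9.42 and 9.48 in shCTRL, 9.44, 9.36 and 9.39 in shUBE4B, 9.72, 9.51 and 9.67 in shLSD1, and 9.28, 9.39 and 9.38 in the double knockdown. The double knockdown lay below the control without overlap (-0.16, standard error 0.07, adjusted p = 0.231 in limma). RPA2 was lower in the double knockdown than in shLSD1 when shCTRL replicate 2 was left out (-0.28, adjusted p = 0.042). FEN1, the flap endonuclease, and LIG1, the ligase that seals Okazaki fragments, differed from shCTRL by at most 0.07 in any knockdown.

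Of the 4 nucleotide supply genes, 1 passed the test, lower in the double knockdown, and none was higher. TK1, the salvage thymidine kinase, read 10.43, 10.31 and 10.37 in shCTRL, 10.23, 10.19 and 10.10 in shUBE4B, 10.36, 10.25 and 10.21 in shLSD1, and 10.18, 10.08 and 10.12 in the double knockdown. With both sets of shRNAs TK1 fell by 0.24 (standard error 0.07, adjusted p = 0.0393 in limma), and with shUBE4B it differed by -0.20 (adjusted p = 0.0719). That call did not last when shCTRL replicate 1 or 3, shUBE4B replicate 1 or 2, shLSD1 replicate 2 or any of the double knockdown arrays was left out (adjusted p up to 0.129). RRM2, the regulated subunit of ribonucleotide reductase, read 8.56, 7.88 and 8.35 in shCTRL, 8.56, 8.61 and 8.58 in shUBE4B, 8.69, 8.80 and 8.67 in shLSD1, and 8.70, 8.62 and 8.66 in the double knockdown. Its control arrays spread over more than the knockdown groups did, with an SD of 0.35 against 0.02 to 0.07. The differences of 0.32, 0.45 and 0.40 did not pass (adjusted p = 0.12, 0.113 and 0.0742), and they did when shCTRL replicate 1, the highest control, was left out (adjusted p = 0.0234, 0.0488 and 0.0146). When shCTRL replicate 2, the lowest control, was left out, they shrank to 0.13, 0.26 and 0.20 and did not pass (adjusted p = 0.332, 0.11 and 0.107). TYMS, thymidylate synthase, read 11.09, 10.99 and 11.01 in shCTRL and 11.15, 11.16 and 11.14 in shUBE4B. That difference of 0.12 did not pass (adjusted p = 0.183), nor did -0.04 in shLSD1 and 0.06 in the double knockdown.

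E2F family genes moved in opposite directions. E2F7, a repressor of E2F targets, read 8.64, 8.72 and 8.69 in shCTRL, 8.98, 9.09 and 9.02 in shUBE4B, 8.86, 8.90 and 8.86 in shLSD1, and 9.16, 9.14 and 9.19 in the double knockdown. The 4 groups did not overlap, in the same order as for ORC3. E2F7 rose by 0.35 in shUBE4B (1.27-fold, standard error 0.06, adjusted p = 0.00232 in limma) and by 0.48 in the double knockdown (1.39-fold, adjusted p = 0.000227), and the difference in shLSD1 was 0.19 (adjusted p = 0.13).

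E2F8, the other atypical repressor of the family, was lower in the double knockdown. It read 9.58, 9.39 and 9.63 in shCTRL, 9.22, 9.38 and 9.26 in shUBE4B, 9.48, 9.45 and 9.32 in shLSD1, and 9.09, 9.25 and 9.09 in the double knockdown. Its change with both sets of shRNAs was -0.39 (standard error 0.08, adjusted p = 0.0102 in limma) and -0.25 in shUBE4B (adjusted p = 0.0666). Without shCTRL replicate 2, E2F8 also passed in shUBE4B (-0.32, adjusted p = 0.0304).

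Of the activating factors, E2F2 fell. It read 8.76, 8.68 and 8.70 in shCTRL, 8.47, 8.26 and 8.26 in shUBE4B, 8.64, 8.55 and 8.52 in shLSD1, and 8.27, 8.18 and 8.35 in the double knockdown. Each knockdown group lay below the control without overlap. The differences were -0.38 in shUBE4B (0.77-fold, standard error 0.07, adjusted p = 0.00674 in limma), -0.45 with both (0.73-fold, adjusted p = 0.00238) and -0.14 in shLSD1 (adjusted p = 0.431), and the first 2 were kept whichever array was left out. E2F1 read 10.36, 10.27 and 10.25 in shCTRL, 10.22, 10.19 and 10.13 in shUBE4B, 10.24, 10.18 and 10.17 in shLSD1, and 10.10, 10.14 and 10.21 in the double knockdown. Its differences of -0.11, -0.09 and -0.14 did not pass, although each knockdown group lay below the controls. E2F3 had positive differences of 0.26, 0.13 and 0.22, which did not pass with all arrays, and without shCTRL replicate 1 it was higher in shUBE4B (0.37, adjusted p = 0.0151) and in the double knockdown (0.32, adjusted p = 0.033). Leaving out shCTRL replicate 2 gave E2F3 differences of 0.18, 0.05 and 0.14, none past the test (adjusted p = 0.243, 0.85 and 0.381).

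CCNE1, the cyclin that activates CDK2 at entry into S phase, was called in shLSD1. It read 9.60, 9.46 and 9.46 in shCTRL, 9.55, 9.51 and 9.50 in shUBE4B, 9.95, 9.80 and 9.78 in shLSD1, and 9.77, 9.70 and 9.62 in the double knockdown. The 6 arrays with shRNA against LSD1 lay above the 6 without it. CCNE1 rose by 0.34 in shLSD1 (standard error 0.07, adjusted p = 0.0399 in limma), and the difference in the double knockdown was 0.19 (adjusted p = 0.115). That call was lost when any of the 3 shCTRL, shUBE4B or shLSD1 arrays, or the second double knockdown array, was left out (without shCTRL replicate 2, 0.32 with adjusted p = 0.0701). CCNE2, its paralog, read 9.90, 9.34 and 9.82 in shCTRL and between 9.59 and 9.83 in the 9 knockdown arrays, with differences of 0.10, -0.03 and 0.01. Without the low second control they were -0.07, -0.20 and -0.17, none past the test (adjusted p = 0.526, 0.127 and 0.112).

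**Figure D3:**
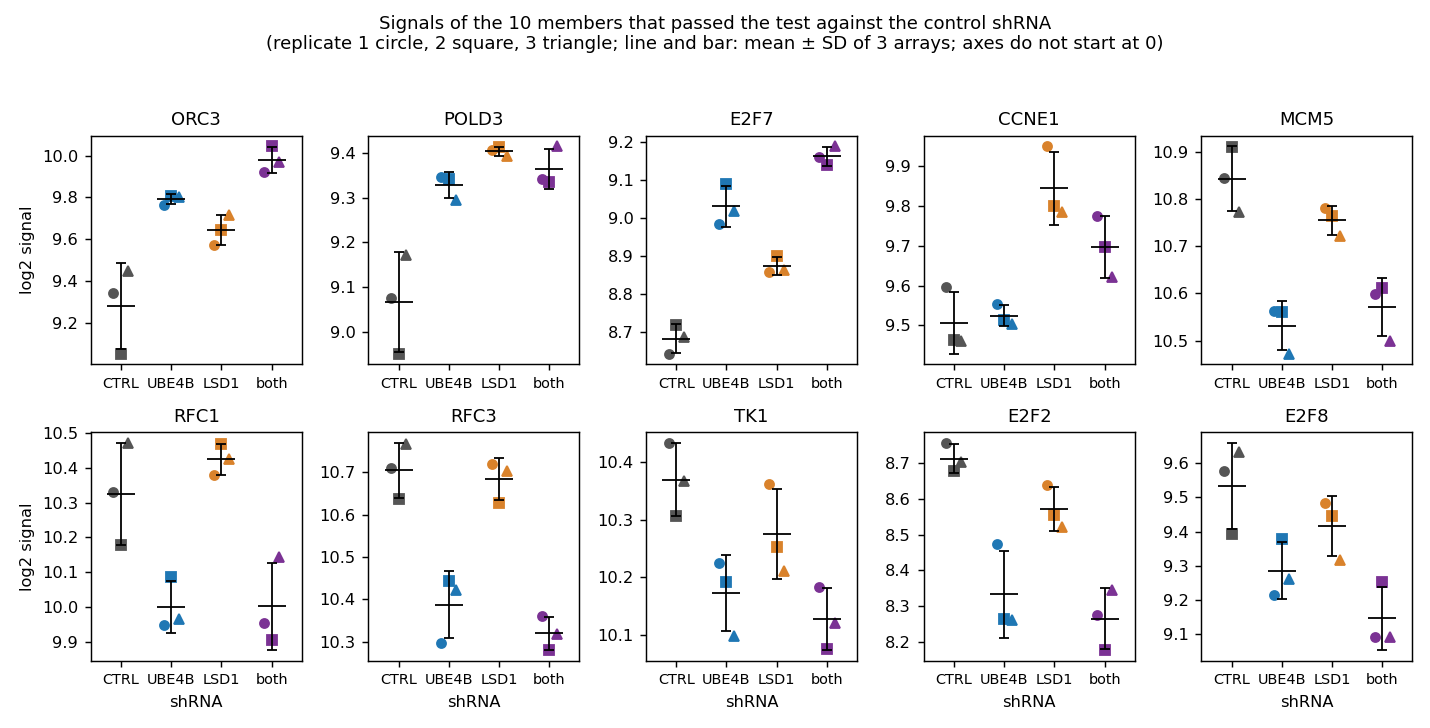
Log2 signal (y axis, not starting at 0) of the 10 genes that passed the test against shCTRL, by shRNA group (x axis), with 1 point per array shaped by replicate number and the mean ± SD of 3 arrays. MCM5, RFC1 and RFC3 lie lower in both groups that received shRNA against UBE4B, and ORC3 and E2F7 rise from the control to the double knockdown.

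Chromatin assembly and maintenance, the smallest class with 3 genes, had no call. UHRF1, which recruits the maintenance methyltransferase to newly copied DNA, read 10.73, 10.88 and 10.63 in shCTRL, 10.60, 10.63 and 10.55 in shUBE4B, 10.59, 10.65 and 10.60 in shLSD1, and 10.63, 10.67 and 10.58 in the double knockdown. Its differences were -0.16, -0.14 and -0.12 (adjusted p = 0.146, 0.413 and 0.338 in limma). UHRF1 was highest in shCTRL replicate 2, and without it the differences were -0.09, -0.07 and -0.06. CHAF1A and CHAF1B, subunits of the chromatin assembly factor that follows the fork, had differences between -0.10 and 0.13.

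Whether adding the second knockdown changed these genes was asked by comparing the double knockdown with each single one. Against shUBE4B, 0 of the 56 passed in limma, where 0.147% of all genes did. At an unadjusted p under 0.05 there were 7, against 13.0% of all genes, and by the methods' t-test at that p there were 12, against 14.3%. ORC3 and E2F7 were higher in the double knockdown than in shUBE4B by 0.19 and 0.13 (adjusted p = 0.383 and 0.336), with no overlap between the arrays.

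Against shLSD1, adding shRNA against UBE4B left 1 gene higher and 3 lower, where 0.977% and 1.81% of all genes were. E2F7 was higher by 0.29 (standard error 0.06, adjusted p = 0.0157 in limma). RFC1 was lower by -0.42 (adjusted p = 0.0181), RFC3 by -0.36 (adjusted p = 0.00943) and E2F2 by -0.31 (adjusted p = 0.0416). Only RFC3 kept its call whichever array was left out. E2F7 and RFC1 lost theirs without any 1 of the shLSD1 arrays (adjusted p up to 0.0651 and 0.0822), as also without double knockdown replicate 1 for both, 2 for RFC1 and 3 for E2F7. E2F2 lost its call without any 1 of those 6 arrays, or without shUBE4B replicate 2 or 3 (adjusted p up to 0.156). This comparison uses no control array for its means. In it 22 of the 56 genes had all 3 double knockdown arrays below all 3 shLSD1 arrays and 5 had them above, where 12.4% and 10.6% of all genes did. The 22 included all 6 MCM subunits, with differences from -0.21 to -0.10, of which none passed the test. CDC6 differed by -0.37 (adjusted p = 0.0626) and ORC3 by 0.34 (adjusted p = 0.0616), and both passed without shCTRL replicate 2, which enters only the estimate of the spread (adjusted p = 0.00376 and 0.00888), as did GINS2 (-0.23, adjusted p = 0.04). By sign alone, 45 of the 56 were lower and 11 higher, where 49.5% and 50.5% of all genes were.

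Departure of the double knockdown from the sum of the single ones was tested as an interaction. None of the 56 passed in limma, as was true of all genes (0%). At an unadjusted p under 0.05 there were 4 of the 56, against 13.1% of all genes. These were POLD3 (-0.30, adjusted p = 0.234), POLA1 (-0.28, adjusted p = 0.251), GINS3 (-0.33, adjusted p = 0.294) and GINS4 (-0.19, adjusted p = 0.378). With all arrays, the 9 polymerase and primase genes had a negative interaction, with a median of -0.14, and 44 of the 56 genes did, with a median of -0.07 where that of all genes was 0.01 and 47.3% were negative. Of the 9, 7 were negative without shCTRL replicate 2, PRIM1 and POLA2 being at 0.05 and 0.02, with a median of -0.11, and 35 of the 56 were, with a median of -0.03. The control arrays enter each of these values with the same sign, so an array that is low for most replication genes moves them together.

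Further genes of the pathway came from lists of factors outside the 56. Of 69 measured, 5 were higher and 5 lower in shUBE4B, 2 and 2 in shLSD1, and 2 and 6 in the double knockdown, where the shares of all genes were 5.59% and 4.47%, 0.505% and 0.315%, and 3.74% and 3.83%. These counts were 3 and 5, 1 and 3, and 3 and 9 without shCTRL replicate 2. Of all 18417 genes, 625 and 601, 75 and 123, and 626 and 923 were then higher and lower. TIMELESS, which protects stalled forks, was the single call among 14 other fork factors. It read 8.67, 8.81 and 8.88 in shCTRL, 9.38, 9.35 and 9.43 in shUBE4B, 9.12, 9.13 and 9.20 in shLSD1, and 9.35, 9.43 and 9.49 in the double knockdown. All 9 knockdown arrays lay above the controls, and TIMELESS rose by 0.60 (adjusted p = 0.000294 in limma), 0.36 (adjusted p = 0.0306) and 0.63 (adjusted p = 0.000128). No gene among 11 other initiation factors passed against shCTRL with all arrays, and without shCTRL replicate 2 MCMBP and MTBP were lower in the double knockdown (-0.21 and -0.31). When the double knockdown was compared with shUBE4B, 1 of the 69 passed, where 0.147% of all genes did. Against shLSD1, 4 of the 69 were lower and 0 higher, where 1.81% and 0.977% of all genes were. DBF4B, an initiation factor, was among these 4 (-0.30, adjusted p = 0.0324 in limma).

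Of 19 RB pathway genes outside the 56, 3 were higher and 3 lower in shUBE4B, where 5.59% and 4.47% of all genes were. In shLSD1 1 was higher and 0 lower (0.505% and 0.315% of all genes), and in the double knockdown 1 was higher and 2 lower (3.74% and 3.83%). CCND1, the cyclin D that starts RB phosphorylation, fell by 0.66 in shUBE4B (adjusted p = 0.000799 in limma) and fell by 0.46 in the double knockdown (adjusted p = 0.00567). E2F4, the E2F that works mainly with the RB relatives in resting cells, fell by 0.26 (adjusted p = 0.021) and fell by 0.25 (adjusted p = 0.0261). In shUBE4B CDKN1B, the CDK2 inhibitor p27, rose by 0.33 (adjusted p = 0.0133), and RBL1, an RB relative, by 0.32 (adjusted p = 0.0271). RBL2, another relative, rose by 0.37 (adjusted p = 0.0372), and CCND2 fell by 0.29 (adjusted p = 0.0368). CDK6, the partner of cyclin D, rose by 0.42 in shLSD1 (adjusted p = 0.0417) and by 0.39 in the double knockdown (adjusted p = 0.0131). CDKN1A, the CDK2 inhibitor p21, did not pass, with differences of 0.06, -0.05 and 0.12. When shCTRL replicate 2 was left out, the calls of E2F4 in both comparisons, of RBL1, RBL2 and CCND2 in shUBE4B and of CDK6 in shLSD1 were lost (adjusted p from 0.0544 for E2F4 to 0.119 for RBL2), while E2F5 in shUBE4B and CDK2 in the double knockdown were lower (-0.35 and -0.27).

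Checkpoint, nucleotide and chromatin genes outside the 56 gave the remaining calls against shCTRL. WEE1, the kinase that restrains CDK1, fell by 0.35 in shUBE4B (adjusted p = 0.00824 in limma) and fell by 0.34 in the double knockdown (adjusted p = 0.00888), and RAD17, the loader of the checkpoint clamp, rose by 0.41 in shUBE4B (adjusted p = 0.0425), a call lost without shCTRL replicate 2 (0.28, adjusted p = 0.141). CMPK1, a kinase of pyrimidine nucleotides, fell by 0.74 in shLSD1 (adjusted p = 0.0019) and fell by 0.54 in the double knockdown (adjusted p = 0.00145), while in shUBE4B the difference was 0.01. DCK, the deoxycytidine kinase, fell by 0.28 in shLSD1 (adjusted p = 0.0493) and fell by 0.34 in the double knockdown (adjusted p = 0.00403). DUT, which removes dUTP, fell by 0.25 in the double knockdown (adjusted p = 0.0476), and CDCA7, a chromatin factor, fell by 0.20 in shUBE4B (adjusted p = 0.0461). Without shCTRL replicate 2, CDCA7 was also lower in the double knockdown (-0.22, adjusted p = 0.0386), and SLBP in shUBE4B (-0.21, adjusted p = 0.0482). RRM2B was then lower in shLSD1 (-0.32, adjusted p = 0.0445). CABIN1 was higher in shUBE4B (0.22, adjusted p = 0.0448) and the double knockdown (0.29, adjusted p = 0.00925).

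Calls differed in how well they withstood changes of procedure. The 22 calls of single genes, over the 5 pairwise comparisons, were recomputed under 22 alternatives each, which gave 484 values. Of these 393 stayed called, 91 were lost and 0 turned sign. E2F7 in the double knockdown was called under all 22. Lost most often were CCNE1 in shLSD1 (13 of 22), TK1 in the double knockdown (11 of 22) and E2F2 in the double knockdown against shLSD1 (10 of 22).

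**Figure D4:**
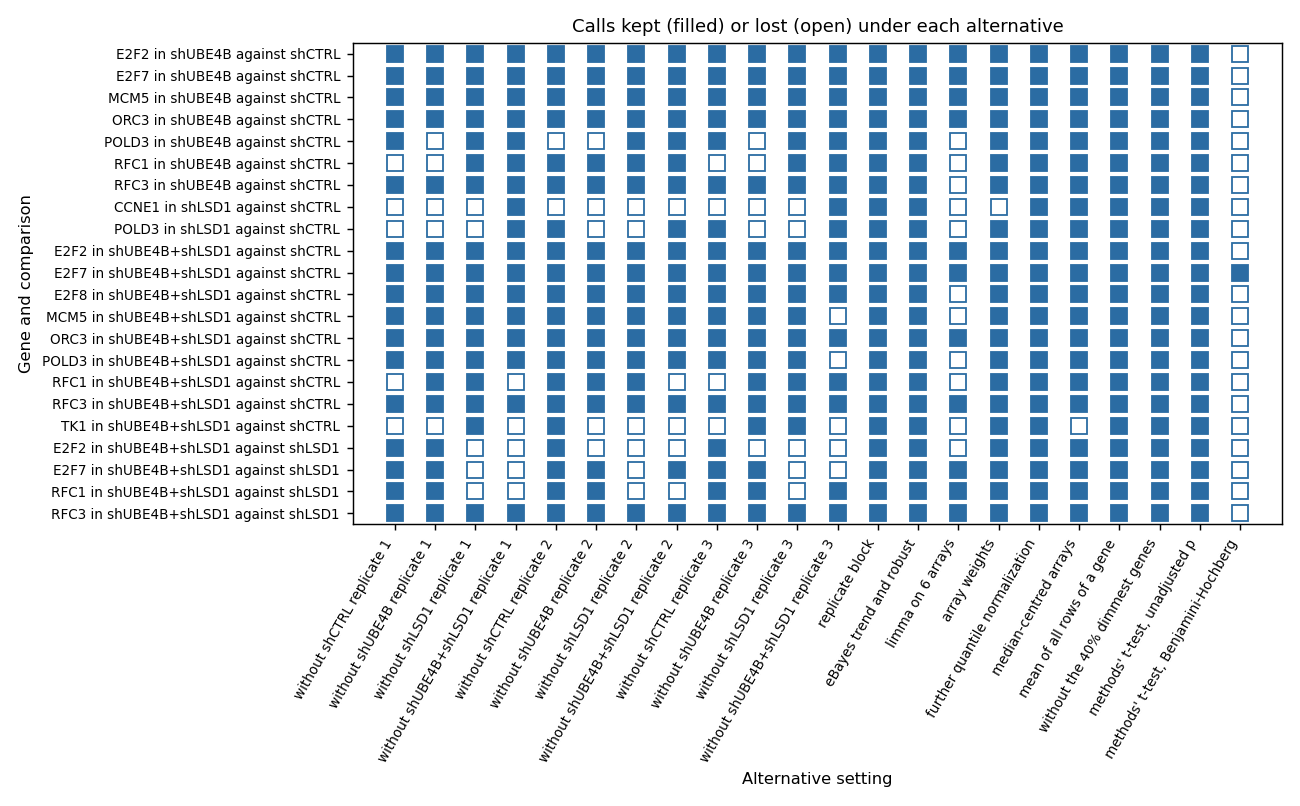
Each row (y axis) is a gene and comparison that passed the test, each column (x axis) an alternative, with a filled square where the call was kept and an open one where it was lost. The last column, the methods' t-test after Benjamini-Hochberg adjustment, is open for all but E2F7 in the double knockdown.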

How the data were processed

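Total RNA of 12 HEK293T cultures was hybridized by the authors to Affymetrix Human Gene 1.0 ST arrays. The deposited log2 signals, 1 per transcript cluster, were made by RMA in Partek, which subtracts background, sets arrays to 1 distribution by quantiles and summarises probes. Annotation was on hg19, and versions are not given in the sources used here. RMA removes any shift common to all genes. Of 33297 clusters, 19460 carried 1 symbol and gave 18417 genes, with the brightest cluster standing for a gene that had several. Clusters with several symbols (1754) or unnamed here (12083) were left out. Array medians lay between 7.00 and 7.06. The number of arrays limits the precision.

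The fit used limma 3.58.1 under R 4.3.3 (functions lmFit and eBayes, no trend, 4 group means, 8 residual and 5.13 prior degrees of freedom, no replicate block), adjusted over 18417 genes and called at 0.05. The code was tested on simulated data. Named were all called members, the member with the largest difference in a class without calls, E2F1, CDC6, CDT1, MCM2, PCNA, RRM2, TYMS, CCNE1, CDKN1A, the targets, and up to 5 called genes of each other list. For the RB pathway list more than 5 called genes were named. Other members and further genes of the lists were named after their values were seen. The members and lists were chosen with earlier results of these data known, and the promoter motifs after the files were read. The methods' t-test is the Student test named by the study. Alternatives were each array left out, a replicate block, a robust eBayes with trend, a fit of the 6 arrays of a comparison alone, array weights, another round of quantile normalization, centring on array medians, averaging the clusters of a gene, dropping the 40% dimmest genes, and that t-test. Plots were made in matplotlib 3.10.9 (NumPy 2.4.6, Python 3.11.15).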

Additional observations from a re-analysis of the deposited data

How the results depend on the processing

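The number of called genes depended on the test more than on the scaling. In shUBE4B the count of 7 called replication genes became 13 with trend and robust eBayes, 4 on the 6 arrays of the comparison, 11 after further quantile normalization, 12 without the 40% dimmest genes, 15 by the methods' t-test unadjusted and 0 after its adjustment, and 5 to 9 with 1 array left out. Over all genes the 1030 higher and 824 lower became 1372 and 1000 with trend and robust eBayes and 388 and 305 on 6 arrays. Further quantile normalization gave 1048 and 879, and the 11050 genes left without the dimmest gave 1335 and 977. The t-test gave 1672 and 1827 unadjusted and 17 and 29 after adjustment. In shLSD1 the count of 2 became 0 on 6 arrays, 1 with array weights, 9 by the t-test and 0 after its adjustment, and 0 to 2 with 1 array left out. Over all genes the 93 higher and 58 lower became 1 and 1 on 6 arrays and 125 and 109 with array weights. The t-test gave 966 and 839 unadjusted and 0 and 1 after adjustment. In the double knockdown the count of 9 became 15 with trend and robust eBayes, 4 on 6 arrays, 17 by the t-test and 1 after its adjustment, and 6 to 14 with 1 array left out, 14 without shCTRL replicate 2. Over all genes the 688 higher and 705 lower became 907 and 933 with trend and robust eBayes and 219 and 201 on 6 arrays. The t-test gave 1318 and 1413 unadjusted and 25 and 23 after adjustment, and the fit without shCTRL replicate 2 gave 626 and 923. Against shUBE4B the count of 0 became 12 by the t-test, which 14.3% of all genes passed. Against shLSD1 the count of 4 became 11 with trend and robust eBayes, 10 with array weights, 10 without the dimmest genes, 20 by the t-test and 0 after its adjustment, and 1 to 8 with 1 array left out, 8 without shCTRL replicate 2 and 1 without each of shLSD1 replicates 1, 2 and 3 or the first double knockdown array. Over all genes the 180 higher and 333 lower became 293 and 515 without shCTRL replicate 2. No share of all genes is given here for the other counts of this comparison. The medians of the 56 genes ranged, with 1 array left out, from -0.031 to 0.051 in shUBE4B, from -0.038 to 0.059 in shLSD1 and from -0.104 to -0.012 in the double knockdown. The interaction stayed at 0 under every alternative run, and the causes of these moves were not tested. The main fit did not take the replicate numbers as pairs, although arrays of the same number were somewhat more alike. Deviations of arrays of the same number correlated at -0.08 to 0.328 (median 0.131, 18 pairs) and those of other numbers at -0.344 to 0.248 (median -0.028, 36 pairs). Of 12 arrays, 8 correlated best with an array of their own number. With a replicate block the counts were 10 in shUBE4B, 2 in shLSD1, 10 in the double knockdown, 0 against shUBE4B and 5 against shLSD1. Over all genes in shUBE4B, the block gave 1276 higher and 1033 lower, where the main fit gave 1030 and 824. It gave 152 and 85 in shLSD1, against 93 and 58, and 899 and 922 in the double knockdown, against 688 and 705.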

Other observations

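The 18 mitotic genes listed beside the replication genes, which act after S phase, had 1 call against shCTRL with all arrays. This was AURKB, the kinase of the chromosomal passenger complex, lower in shUBE4B as were 4.47% of all genes. It read 10.81, 10.86 and 10.85 in shCTRL and 10.64, 10.64 and 10.59 in shUBE4B, and fell by 0.22 there (adjusted p = 0.0316 in limma). In shLSD1 and the double knockdown it differed by -0.17 and -0.14, neither past the test. The median difference of the 18 was 0.08 in shUBE4B, -0.00 in shLSD1 and -0.03 in the double knockdown. Without shCTRL replicate 2, which was low for these genes, the medians were -0.00, -0.09 and -0.10, AURKB no longer passed (-0.21, adjusted p = 0.0651), and NUSAP1 and CDK1 were lower in the double knockdown (-0.38, adjusted p = 0.011, and -0.28, adjusted p = 0.0428).

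Of 9 genes listed for the neuronal and renal features of this line, INA, an intermediate filament protein of neurons, fell by 0.30 in shUBE4B (adjusted p = 0.0245 in limma) and fell by 0.35 in the double knockdown (adjusted p = 0.013), and CDH2, N-cadherin, was lower in the double knockdown than in shLSD1 (-0.23, adjusted p = 0.044). Of the 9, 7 had negative differences in shUBE4B and 7 in the double knockdown, with no other call, and INA did not pass in shUBE4B without shCTRL replicate 2 (adjusted p = 0.0672). Of 6 genes listed for colon epithelium, EPCAM, an epithelial adhesion protein, read 6.59, 6.19 and 6.94 in shCTRL, 6.00, 6.02 and 6.04 in shUBE4B, and 5.88, 6.02 and 6.07 in the double knockdown, with differences of -0.55 (adjusted p = 0.0264) and -0.58 (adjusted p = 0.0232). These signals, from the brighter of its 2 clusters, lay below the array medians of 7.00 to 7.06. Of all genes, 4.47% were lower in shUBE4B and 3.83% in the double knockdown. The other genes of the colon list, CDX1, CDX2, VIL1, CDH17 and LGALS4, lay between -0.11 and 0.04 in shUBE4B and between -0.09 and 0.09 in the double knockdown, none past the test.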
